A study of Homo sapiens with 6 samples.

Results

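The genes described here were 10 enzymes of glycolysis (HK1, HK2, GPI, PFKP, ALDOA, GAPDH, PGK1, ENO1, PKM and LDHA), taken by gene name from bulk RNA-seq of irradiated HK-2 cells. HK-2 is an immortalized line of human kidney proximal tubule epithelium. Each library listed 34644 gene names in 38648 rows, and the 10 names had 12 rows because LDHA and GPI were also listed a second time on scaffolds outside the assembled chromosomes. These extra rows are called LDHA-2 and GPI-2, and all 12 rows had enough counts to be tested. The cells carried either the NC lentivirus (IR+NC-LV, the control group, 3 libraries) or the PRDM16 lentivirus (IR+PR-LV, the PRDM16 group, 3 libraries). All cells of both groups had been transduced, had received 8 Gy of X-rays in 1 dose and were collected on day 7, and unirradiated cells were not analysed here. The transduced cells were selected with puromycin, so each group is a selected population of 1 cell line, and no source used here says whether its 3 libraries came from separate transductions.

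Glycolysis splits glucose into pyruvate in the cytosol and yields ATP and NADH without oxygen. In cells with little oxygen, or in proliferating and cultured cells, much of the pyruvate is reduced to lactate by lactate dehydrogenase, which returns NAD+ to the pathway. The proximal tubule of the intact kidney depends mainly on oxidation of fatty acids and is better known for making glucose than for using it, whereas cultured tubule lines use glycolysis.

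PRDM16, the gene delivered by the lentivirus, had 2, 0 and 1 counts in the control group and 14, 10 and 8 counts in the PRDM16 group. The groups did not overlap and their order was that of the labels, but the level was low, with a mean of 0.201 TPM ± 0.0943 (SD, n = 3) in the PRDM16 group. Total counts ranged from 13407074 to 28540041 per library, of which the 12 rows made up 0.946% to 1.15%. Of the markers of proximal tubule, PAX8 ranged from 128 to 158 TPM, CDH6 from 65.3 to 89.7 TPM and GGT1 from 56.2 to 77.0 TPM, whereas the endocytic receptor LRP2 had 0 or 1 count per library and CUBN stayed under 0.407 TPM. Keratins of simple epithelium were high, with KRT8 between 772 and 969 TPM, but the cadherin CDH1 stayed under 0.582 TPM. The endothelial markers had a summed level of at most 0.587 TPM in any library. Of the 6 fibroblast markers, LUM reached 140 TPM and COL1A1 13.1 TPM, while DCN, COL1A2 and PDGFRA reached at most 0.120 TPM and PDGFRB reached at most 1.19 TPM. Of the 4 leukocyte markers, the lysosomal gene CD68 reached 199 TPM, while PTPRC and CD3E reached at most 0.142 TPM and LYZ at most 1.32 TPM. The cells thus carried epithelial and some tubular markers, with the defining apical receptors of the mature proximal tubule at or near 0.

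Before any test, the 10 enzymes differed in level by a factor far above the spread between libraries. TPM is counts per length of all listed exons, brought to a common total, so levels of different genes can be set side by side. This holds only as far as the listed exon length fits the transcripts present. In IR+NC-LV the order was GAPDH (7994 TPM ± 804), ENO1 (2479 ± 216), PKM (1183 ± 77.8), PGK1 (791 ± 95.7), PFKP (260 ± 9.25), HK1 (117 ± 10.8), GPI (58.2 ± 5.67), HK2 (24.5 ± 2.12), ALDOA (13.0 ± 1.94) and LDHA (3.997 ± 0.844), all as mean ± SD with n = 3 and from the chromosome rows. The order in the PRDM16 group was the same, and in neither group did the library ranges of neighbours in the order overlap. GAPDH had the highest mean TPM of all 28831 rows with any count, ENO1 ranked 29th, PKM 93rd and PGK1 150th. The enzymes of the later steps, from GAPDH to PKM, thus stood above those of the earlier steps, from hexokinase to aldolase. The positions of ALDOA and LDHA in this order are uncertain for reasons of counting that are given with each gene. The position of GPI is uncertain too, since its TPM rests on 11043 exon bases, against 4341 bases in its GENCODE transcript.

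**Figure D1:**
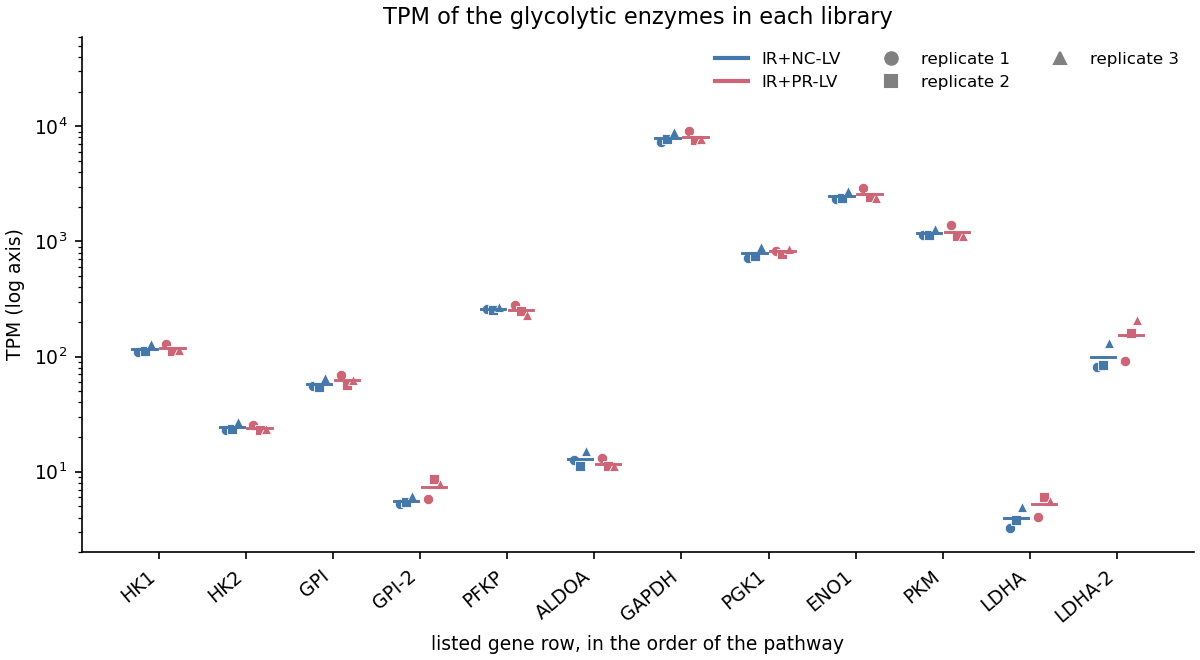
TPM of the 12 listed rows of the glycolytic enzymes in each library, on a log axis and in pathway order from HK1 to LDHA-2. Points are the 3 libraries of each group (circle, square and triangle for replicates 1, 2 and 3), short lines are group means, GAPDH lies highest at 7349 to 9041 TPM, and the groups overlap in every row.

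Sequence upstream of the start is shown for 3 members whose window ends right before their row, PGK1 and ENO1 from among the highest levels and LDHA with the largest fold change. The windows are the 250 bases before the start in RefSeq on GRCh38.p14, read 5′ to 3′ on the gene's strand. Capitals mark ACGTG or GCGTG on either strand, the letters at the core of hypoxia-response elements.
PGK1: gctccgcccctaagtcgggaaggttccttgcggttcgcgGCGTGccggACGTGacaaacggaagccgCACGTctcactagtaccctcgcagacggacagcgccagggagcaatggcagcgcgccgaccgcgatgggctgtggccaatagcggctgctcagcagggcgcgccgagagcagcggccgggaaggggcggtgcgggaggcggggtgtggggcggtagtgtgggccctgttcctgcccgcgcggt
ENO1: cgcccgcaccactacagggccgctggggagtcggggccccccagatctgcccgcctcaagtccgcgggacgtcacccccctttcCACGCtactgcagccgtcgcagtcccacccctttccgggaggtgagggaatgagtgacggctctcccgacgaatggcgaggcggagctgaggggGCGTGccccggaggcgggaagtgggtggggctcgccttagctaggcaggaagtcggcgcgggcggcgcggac
LDHA: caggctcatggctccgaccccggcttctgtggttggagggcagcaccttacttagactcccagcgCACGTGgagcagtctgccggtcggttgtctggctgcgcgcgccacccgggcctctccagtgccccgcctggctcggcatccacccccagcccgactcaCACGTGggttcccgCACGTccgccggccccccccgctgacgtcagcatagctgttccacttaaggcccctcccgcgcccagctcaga
The PGK1 window is chrX:78103998-78104247 on the plus strand, the ENO1 window is chr1:8878687-8878936 on the minus strand and the LDHA window is chr11:18394313-18394562 on the plus strand. LDHA had 5 matches of ACGTG, of which 4 lie in 2 copies of the palindrome CACGTG (read on both strands, so each counts as 2). PGK1 had 2 matches of ACGTG and 1 of GCGTG, and ENO1 had 2 of GCGTG. All 10 members had an entry in the RefSeq promoter table, and 7 of the 10 windows held ACGTG or GCGTG, against 43.1% of 27305 promoters of the same length. ACGTG was found in 6 members' windows and in 18.7% of all promoters, and CACGTG in 2 (GAPDH and LDHA) and in 6.49% of all. The windows of HK1, PFKP and PKM held neither ACGTG nor GCGTG. The members' windows ranged from 46.8% to 76.8% GC, against a median of 58% over all promoters. The shares over all promoters were not matched for GC. These matches describe letters in a window and are not binding sites.

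Setting the PRDM16 group against the control group asks which genes differ with PRDM16 in irradiated tubule cells. None of the 10 enzymes passed the test in it. With edgeR's quasi-likelihood test and Benjamini-Hochberg adjustment over 15340 rows, 0 of the 12 rows were called at an adjusted p of 0.05, with adjusted p from 0.398 to 0.998. The background was low too, at 10 rows of all those tested, or 0.0652% (3 higher, 0.0196%, and 7 lower, 0.0456%). At an unadjusted p under 0.05 there were 2 of the 12 rows, LDHA-2 and GPI-2, both higher, against 10.5% of all rows (4.55% higher and 5.97% lower). In 1 of the 12 rows, GPI-2, the groups did not overlap in TMM-normalized CPM and the PRDM16 group was higher, against 17.0% of all rows (7.46% higher and 9.54% lower). The log2 fold change was positive in 10 of the 12 rows, against 51.1% of all rows, and its median over the 12 was 0.09, against 0.0044 over all rows. Both values rest on IR+PR-LV 1, without which 6 of the 12 rows were positive and the median was -0.0012. Since bulk RNA was measured, fewer cells with a transcript and less transcript per cell cannot be told apart.

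**Figure D2:**
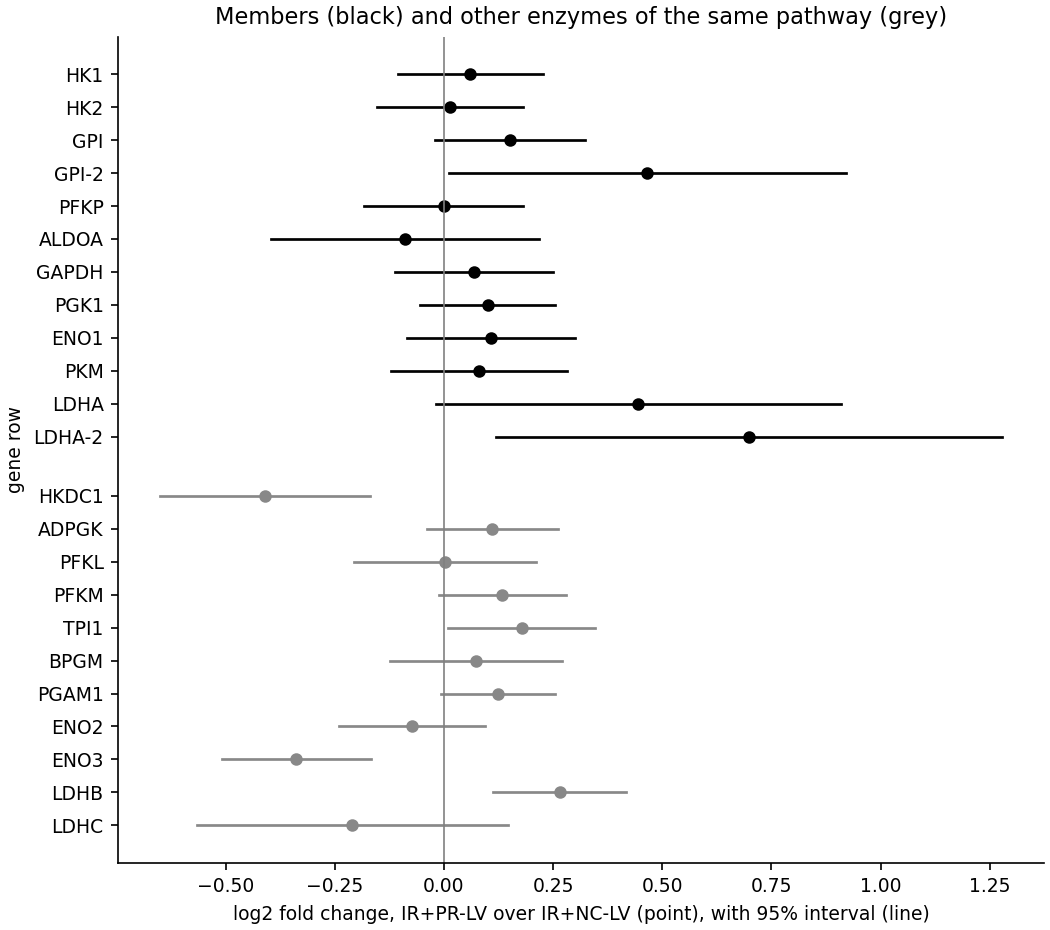
Log2 fold change of IR+PR-LV over IR+NC-LV from edgeR (points) with the 95% interval (lines), for the 12 rows of the members in black and 11 other glycolytic enzymes in grey. The intervals of the 10 chromosome rows all hold 0, from ALDOA at -0.09 to LDHA at 0.44; those of GPI-2, LDHA-2, TPI1 and LDHB lie above 0 and those of HKDC1 and ENO3 below, none past the test after adjustment.

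At the entry of the pathway, hexokinases phosphorylate glucose and so hold it in the cell. HK1 (chr10:69269991-69401882, plus strand), the form bound to mitochondria in most tissues, measured 110, 112 and 129 TPM in the control group and 130, 113 and 113 TPM in the PRDM16 group. HK2 (chr2:74834126-74893359, plus strand), the inducible form of muscle, fat and many tumours, measured 23.0, 23.5 and 26.9 TPM and then 25.4, 23.1 and 23.5 TPM. For both genes the highest libraries were IR+NC-LV 3 and IR+PR-LV 1, and the groups overlapped. The log2 fold change was 0.06 for HK1 (SE 0.07, 95% interval -0.11 to 0.23, edgeR adjusted p = 0.811) and 0.014 for HK2 (SE 0.07, 95% interval -0.15 to 0.18, edgeR adjusted p = 0.961). HK1 supplied 82.7% ± 0.0950 of the TPM of HK1 and HK2 in the control group and 83.1% ± 0.439 in the PRDM16 group (SD, n = 3, 2-sided exact permutation p = 0.2, where 0.1 is the smallest p that 3 against 3 allows).

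A further hexokinase, HKDC1, reached a level near that of HK1 in these cells. It measured 104, 93.3 and 132 TPM in the control group and 89.5, 74.6 and 76.0 TPM in the PRDM16 group, so every IR+PR-LV library lay under every IR+NC-LV library. The log2 fold change of HKDC1 was -0.41 (SE 0.11, 95% interval -0.65 to -0.17), with an edgeR adjusted p of 0.253 that did not pass. DESeq2 called it (adjusted p = 0.0265), as did edgeR without a filter on low counts (adjusted p = 0.00323). When HKDC1 was added to the step, a share chosen after its values were seen, HK1 held 46.4%, 48.9% and 44.9% of hexokinase TPM in the control group and 53.0%, 53.5% and 53.2% in the PRDM16 group. That is a difference of 6.55 percentage points, given as a description with no test because HKDC1 was seen to differ before the share was made. The HK1 level itself was 117 TPM ± 10.8 and 118 TPM ± 9.76 in the 2 groups.

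**Figure D3:**
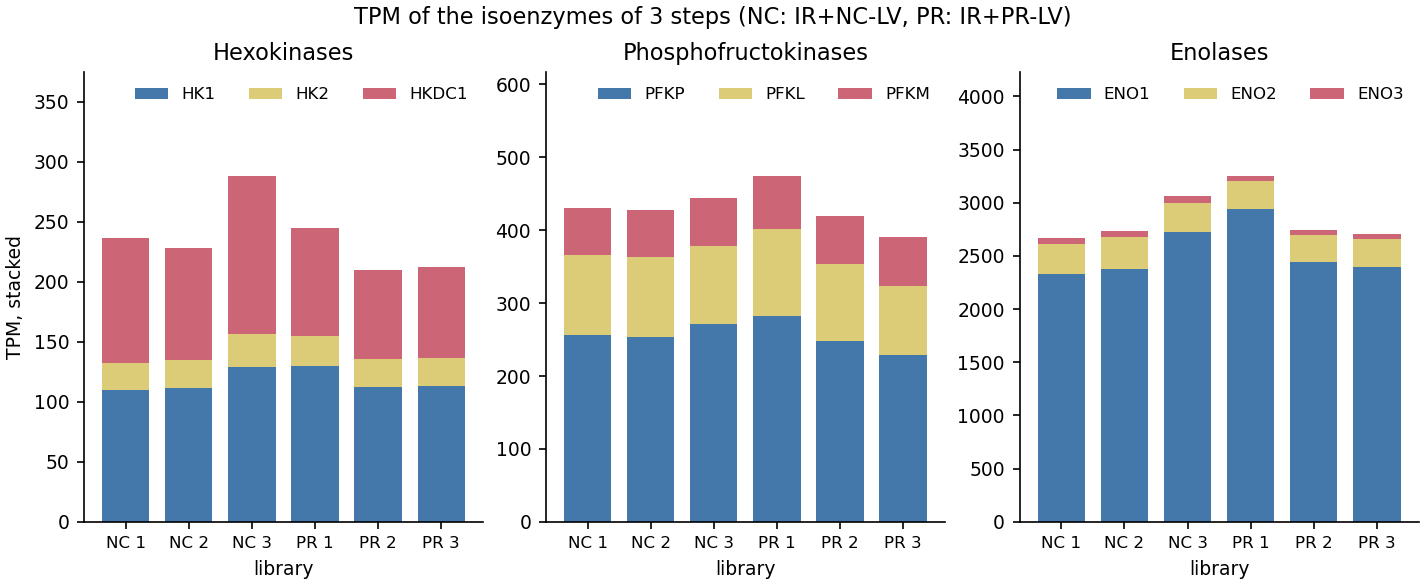
Stacked TPM of the isoenzymes at 3 steps in each library (bars, NC for IR+NC-LV and PR for IR+PR-LV), with hexokinases on the left, phosphofructokinases in the middle and enolases on the right. The HKDC1 segment is 93.3 to 132 TPM in the control libraries and 74.6 to 89.5 TPM in the PRDM16 libraries, while PFKP and ENO1 are the largest segments of their steps in every library.

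GPI, glucose-6-phosphate isomerase, converts glucose 6-phosphate to fructose 6-phosphate. Its row on chromosome 19 (chr19:34353330-34402413, plus strand) measured 55.6, 54.4 and 64.7 TPM in the control group and 68.7, 57.1 and 62.7 TPM in the PRDM16 group. IR+NC-LV 3 was above the lower IR+PR-LV libraries, so the groups overlapped. Its log2 fold change was 0.15 (SE 0.08, 95% interval -0.02 to 0.32, edgeR adjusted p = 0.523; 0.08 without IR+PR-LV 1), the largest among the 9 chromosome rows other than LDHA. The listed exons of GPI share 2237 of 11043 bases with the row of GARRE1 on the same strand. The scaffold row GPI-2 (1226 exon bases) measured 5.22, 5.44 and 6.14 TPM in the control group and 5.77, 8.73 and 7.80 TPM in the PRDM16 group, so that the groups overlapped in TPM though not in normalized CPM. Its log2 fold change was 0.47 (SE 0.20, 95% interval 0.01 to 0.92, edgeR adjusted p = 0.464).

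Phosphofructokinase commits the sugar to glycolysis, and PFKP, its platelet-type subunit, was the main form here. PFKP (chr10:3067475-3136805, plus strand) measured 257, 254 and 271 TPM in the control group and 283, 248 and 229 TPM in the PRDM16 group. The IR+PR-LV libraries lay on both sides of the IR+NC-LV range. Its log2 fold change was -0.00077 (SE 0.08, edgeR adjusted p = 0.998), with a 95% interval of -11.9% to 13.3% in percent change. The other subunits, PFKL of liver and PFKM of muscle, ranged from 94.0 to 119 TPM and from 63.2 to 73.2 TPM. PFKP held 60.0% ± 0.917 of the 3 subunits' TPM in the control group and 59.1% ± 0.461 in the PRDM16 group (SD, n = 3, exact permutation p = 0.2).

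ALDOA, the muscle-type aldolase, cleaves fructose 1,6-bisphosphate. Its row (chr16:30064279-30070420, plus strand) measured 12.6, 11.2 and 15.04 TPM in the control group and 13.1, 11.2 and 11.1 TPM in the PRDM16 group, from 129 to 211 counts per library. The groups overlapped, and the log2 fold change was -0.09 (SE 0.14, 95% interval -0.40 to 0.22, edgeR adjusted p = 0.851; -0.012 to -0.17 when 1 library was left out). Of the 2152 exon bases of ALDOA, 1400 lie also in the row of the readthrough gene LOC112694756 on the same strand, and 12.3% of the 100-base stretches of its GENCODE transcript occurred in no other gene. How reads shared between rows or placed in several locations were counted is not given in the sources used here, so the low level of ALDOA beside its neighbours in the pathway is uncertain.

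GAPDH oxidizes glyceraldehyde 3-phosphate and makes the NADH of the pathway. GAPDH (chr12:6534517-6538371, plus strand) measured 7349, 7738 and 8894 TPM in the control group and 9041, 7681 and 7702 TPM in the PRDM16 group. Its highest libraries were 1 of each group. The fitted log2 fold change was 0.07 (SE 0.08, edgeR adjusted p = 0.801), and the 95% interval ran from -7.45% to 18.9% in percent change. In these libraries GAPDH, which is often used as a reference gene, varied by a factor of 1.23 between the lowest and the highest library.

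PGK1, phosphoglycerate kinase, makes the first ATP that the pathway returns. PGK1 (chrX:78104248-78129295, plus strand) measured 719, 754 and 899 TPM in the control group and 831, 781 and 855 TPM in the PRDM16 group. All 3 IR+PR-LV values in TPM lay within the range of the control group. In TMM-normalized CPM, IR+PR-LV 1 and 3 (1245 and 1262) lay just above the highest control library (1242), and IR+PR-LV 2 (1180) lay within the range. The log2 fold change was 0.10 (SE 0.07, 95% interval -0.06 to 0.26, edgeR adjusted p = 0.659; 0.04 without IR+NC-LV 1 and 0.16 without IR+NC-LV 3).

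ENO1, the ubiquitous enolase, forms phosphoenolpyruvate. ENO1 (chr1:8861000-8878686, minus strand) measured 2333, 2376 and 2728 TPM in the control group and 2940, 2439 and 2400 TPM in the PRDM16 group. Its log2 fold change was 0.11 (SE 0.09, 95% interval -0.08 to 0.30, edgeR adjusted p = 0.705), and the groups overlapped. Without IR+PR-LV 1 the value for ENO1 was 0.0070. The muscle enolase ENO3 was much lower, at 58.0, 54.9 and 61.2 TPM in the control group and 44.3, 42.7 and 47.0 TPM in the PRDM16 group, and did not overlap between groups. With a log2 fold change of -0.34 (SE 0.08), ENO3 had the smallest adjusted p of the pathway genes outside the members, 0.192 by edgeR, and did not pass. ENO2, the neuronal enolase, ranged from 257 to 299 TPM. ENO1 held 87.9% ± 1.16 of enolase TPM in the control group and 89.3% ± 0.981 in the PRDM16 group (SD, n = 3, exact permutation p = 0.3).

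PKM, pyruvate kinase, makes pyruvate and ATP. PKM (chr15:72199029-72231389, minus strand) measured 1141, 1135 and 1273 TPM in the control group and 1403, 1123 and 1121 TPM in the PRDM16 group. IR+PR-LV held both its highest and its lowest library, and the log2 fold change was 0.08 (SE 0.09, 95% interval -0.12 to 0.28, edgeR adjusted p = 0.792). No count fell on PKLR, the pyruvate kinase of liver and red cells, so PKM was the whole of this step. Splice forms of PKM share the row and were not separated here.

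LDHA, the subunit of lactate dehydrogenase that favours lactate formation, had the largest log2 fold change of the members, and its level rests on which listed copy is read. The row on chromosome 11 (chr11:18394563-18408425, plus strand) had 42, 63 and 49 counts in the control group and 53, 133 and 78 counts in the PRDM16 group, or 3.26, 3.82 and 4.91 TPM and 4.05, 6.06 and 5.52 TPM. IR+NC-LV 3 lay above IR+PR-LV 1, so the groups overlapped, and the log2 fold change was 0.44 (SE 0.21, 95% interval -0.02 to 0.91, edgeR adjusted p = 0.488).

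LDHA-2, on a scaffold outside the assembled chromosomes, has 11 exon intervals at the same offsets as the chromosome row and the same 2501 exon bases. It held nearly all LDHA counts, with 1040, 1391 and 1296 in the control group and 1208, 3540 and 2926 in the PRDM16 group, which is 80.6, 84.3 and 130 TPM and 92.4, 161 and 207 TPM. IR+PR-LV 2 and 3 were above every IR+NC-LV library, and IR+PR-LV 1 was below IR+NC-LV 3. The log2 fold change of LDHA-2 was 0.70 (SE 0.26, 95% interval 0.12 to 1.28, edgeR adjusted p = 0.398). It was 0.44 without IR+PR-LV 3 and 0.96 without IR+PR-LV 1. Without the filter on low counts edgeR gave 0.71 with an adjusted p of 0.000254, and under every other setting that tested the row LDHA-2 was not called.

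The chromosome 11 row made up 2.60% to 4.33% of the summed counts of both copies. How reads that match both copies were counted is not given in the sources used here, so the level of LDHA is uncertain. With both copies summed, LDHA measured 102 TPM ± 28.3 in the control group and 159 TPM ± 58.6 in the PRDM16 group (SD, n = 3), and the log2 fold change was 0.69 (edgeR adjusted p = 0.391). Rows outside the assembled chromosomes leaned higher in the PRDM16 group as a class. Of 542 such rows tested, 358 had a positive log2 fold change, against 7839 of all 15340 rows, and the median was 0.21. Of the 114 with an unadjusted p under 0.05, 100 were higher, against 698 of 1614 over all rows. All rows of this kind together made up 0.415%, 0.403% and 0.442% of the total in the control group. In the PRDM16 group they made up 0.431%, 0.482% and 0.494%, so the groups overlapped and IR+PR-LV 1 was the lowest of its group. SLC16A1, the lactate and pyruvate transporter MCT1, had the same layout, with 4 to 10 counts per library on its chromosome row and 423 to 1236 on the scaffold row SLC16A1-2, whose log2 fold change was 0.46 (SE 0.22, edgeR adjusted p = 0.502; 0.30 to 0.69 when 1 library was left out). The part of this class in the LDHA-2 and GPI-2 values was not tested.

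**Figure D4:**
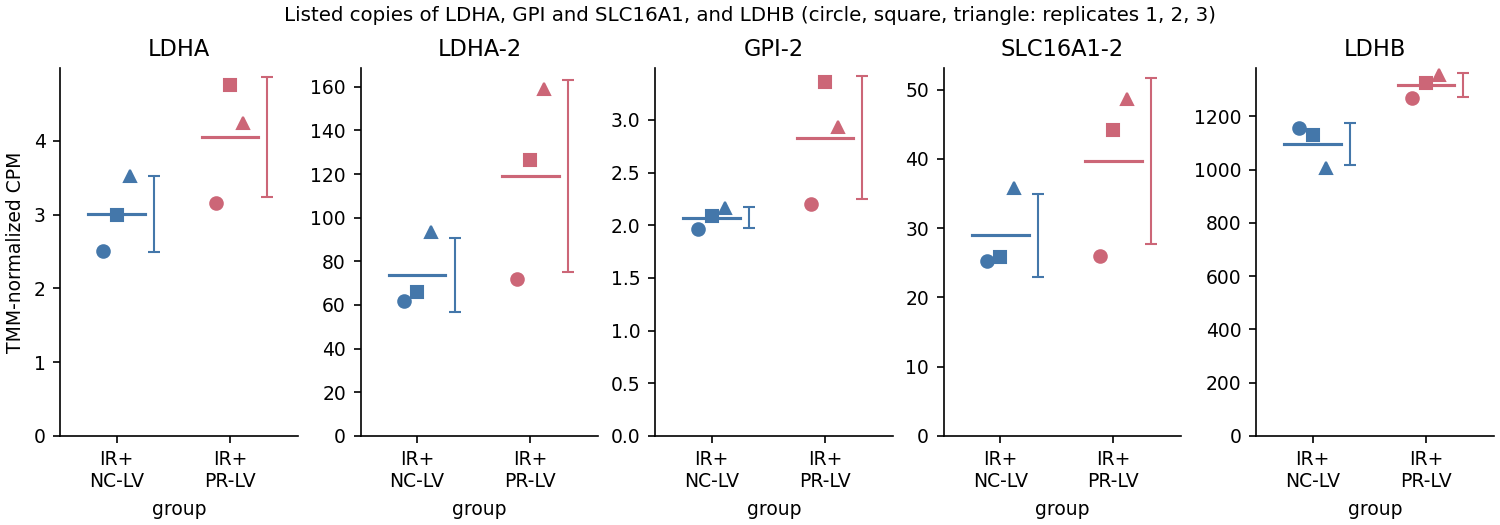
TMM-normalized CPM of LDHA, LDHA-2, GPI-2, SLC16A1-2 and LDHB in the 3 libraries of each group, each panel with its own axis from 0 (circle, square and triangle for replicates 1, 2 and 3, horizontal lines for means, bars for SD). In LDHA, LDHA-2 and SLC16A1-2 the groups overlap, with IR+PR-LV 1 the lowest of its group; in GPI-2 and LDHB they do not.

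LDHB, the subunit that favours pyruvate formation, far exceeded LDHA as counted here. It measured 1920, 1842 and 1790 TPM in the control group and 2081, 2161 and 2262 TPM in the PRDM16 group, without overlap. Its log2 fold change was 0.27 (SE 0.07, 95% interval 0.11 to 0.42, edgeR adjusted p = 0.236), and DESeq2 called it (adjusted p = 0.0264). The chromosome 11 row of LDHA held 0.217% ± 0.0529 of the TPM of LDHA and LDHB in the control group and 0.239% ± 0.0428 in the PRDM16 group (SD, n = 3, exact permutation p = 0.7). With both listed copies of LDHA summed, the share was 5.25% ± 1.53 and 6.74% ± 2.12 (exact permutation p = 0.3). These shares rest on the uncertain level of LDHA. LDHC, the testis form, ranged from 6.62 to 9.92 TPM.

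In TPM, most members shared a pattern over the 6 libraries that cut across the groups. Summed over the 10 chromosome rows, the members had 12002, 12462 and 14306 TPM in the control group and 14738, 12483 and 12522 TPM in the PRDM16 group. The means were 12923 ± 1219 and 13248 ± 1291 (SD, n = 3), a difference of 324 TPM that was smaller than the spread within either group (exact permutation p = 0.5). The difference was -421 TPM without IR+PR-LV 1 and -136 TPM without IR+NC-LV 1. By gene in TPM, 6 of the 10 members were highest in IR+PR-LV 1 and 3 were highest in IR+NC-LV 3, while 6 were lowest in IR+NC-LV 1. LDHA was the exception, highest in IR+PR-LV 2. The 3 highest in IR+NC-LV 3 were HK2, ALDOA and PGK1, and in TMM-normalized CPM only ALDOA stayed so (9.29). In CPM, HK2 was highest in IR+PR-LV 1 (46.3, against 45.2 in IR+NC-LV 3) and PGK1 in IR+PR-LV 3 (1262, against 1242). The median deviation of the members from their own mean was 0.14 on the scale of log2(TPM + 1) in IR+PR-LV 1 and 0.12 in IR+NC-LV 3, and between -0.11 and -0.06 in the other 4 libraries. In TMM-normalized CPM, IR+NC-LV 3 stood out less. ENO1 measured 2474 CPM there and 2893 in IR+PR-LV 1, and PKM 1391 and 1663. PFKP in IR+NC-LV 3 was the lowest of the control group in CPM (321, after 325 and 328), though the highest in TPM. The part of the TPM scale in the shared pattern was not tested.

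Other genes were also high in IR+PR-LV 1, among them the glycolytic isomerase TPI1 at 1405 TPM (1097 to 1216 elsewhere) and the keratin KRT8 at 969 TPM (772 to 829 elsewhere). The relation of these to the members' values was not tested. Expressed per GAPDH, the coefficient of variation was smaller than that of TPM for 8 of the 9 other members in the control group (all but PFKP) and for 7 of 9 in the PRDM16 group (all but PGK1 and LDHA). A factor common to all TPM values of a library cancels in this ratio, so the smaller spread cannot be read as a trait of these enzymes. ENO1 was 31.0% ± 0.612 of the GAPDH TPM in the control group and 31.8% ± 0.683 in the PRDM16 group, PKM was 14.8% ± 0.624 and 14.9% ± 0.535, and HK1 was 1.46% ± 0.0271 and 1.46% ± 0.0185 (SD, n = 3). PGK1 went the other way in the PRDM16 group, at 10.2% ± 0.957 after 9.88% ± 0.202 in the control group. Over the 6 libraries, the genes whose log2 level followed the members' sum most closely were ADCY7 (r = 0.995), SMPD4 (r = 0.994) and LRRK1 (r = 0.994) of 9807 genes compared, given as a description over points that share library and scaling.

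**Figure D5:**
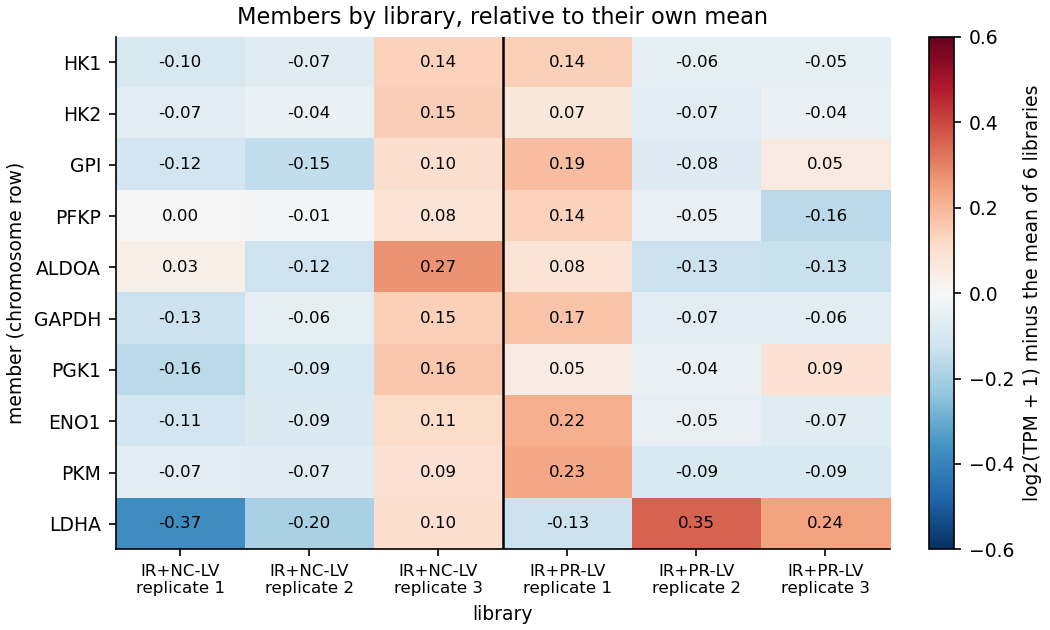
Deviation of each member (rows) in each library (columns) from its own mean over the 6 libraries, on the scale of log2(TPM + 1), in colour and as printed values. IR+NC-LV 3 is above 0 for all 10 members (median 0.12) and IR+PR-LV 1 for all but LDHA (median 0.14), while LDHA is highest in IR+PR-LV 2.

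The rest of the pathway was read from 7 lists of 83 genes, of which 82 were listed and 68 tested. By edgeR 0 of the 68 were called, 6 had an unadjusted p under 0.05 (8.82%, against 10.5% of all rows), and the median log2 fold change was 0.02. Of the other glycolytic isoenzymes and steps, 13 of 19 genes were tested, 9 with a positive and 4 with a negative log2 fold change. An unadjusted p under 0.05 was found for 4 of the 13 (2 higher and 2 lower), against 10.5% of all rows. In TMM-normalized CPM the groups did not overlap for 5 that were higher and 2 that were lower, against 7.46% and 9.54% of all rows. Apart from ENO3, LDHB and HKDC1, the 13 included TPI1, which interconverts the triose phosphates (log2 fold change 0.18, SE 0.07, edgeR adjusted p = 0.449; 0.10 without IR+PR-LV 1), and PGAM1, the phosphoglycerate mutase between PGK1 and enolase (1161 TPM ± 34.8 in the control group and 1231 ± 37.8 in the PRDM16 group, edgeR adjusted p = 0.490).

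Glucose enters and lactate leaves through carriers, and 8 of 10 of these genes were tested, none with an unadjusted p under 0.05. The glucose carrier SLC2A1 (GLUT1) measured 219 TPM ± 21.5 and 216 TPM ± 9.29 in the control and PRDM16 groups (SD, n = 3). In the same order, the lactate exporter SLC16A3 (MCT4) measured 171 TPM ± 3.25 and 176 ± 11.2, and its chaperone BSG 628 ± 23.9 and 664 ± 65.2. Of the regulators, 10 of 12 were tested, and EPAS1 (HIF-2 alpha) was the 1 with an unadjusted p under 0.05, at a log2 fold change of -0.19 (SE 0.08, edgeR adjusted p = 0.439; -0.12 without IR+NC-LV 3). HIF1A, the oxygen-regulated activator of many glycolytic genes, measured 946 TPM ± 26.4 and 933 TPM ± 57.4, and PFKFB3, which makes the activator of phosphofructokinase, 196 ± 7.69 and 202 ± 11.3. The 12 hypoxia response genes outside glycolysis divided evenly, with 6 positive and 6 negative log2 fold changes and a median of 0.0060, and the largest levels were those of BNIP3 (563 TPM ± 52.3 and 614 ± 65.1).

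Pyruvate passes into mitochondria through a carrier and the pyruvate dehydrogenase complex, for which all 13 listed genes were tested. PDK3, a kinase that switches the complex off, had a log2 fold change of 0.25 (SE 0.08, edgeR adjusted p = 0.355) and was the 1 of the 13 with an unadjusted p under 0.05. In the pentose phosphate pathway, which branches from glucose 6-phosphate, 0 of 7 tested genes had an unadjusted p under 0.05, and TALDO1 was highest at 292 to 332 TPM. Gluconeogenesis, a property of the proximal tubule in the kidney, was represented by 5 tested genes, of which G6PC3 ranged from 62.2 to 68.4 TPM and FBP2 and SLC37A4-2 stayed under 5.05 TPM. PCK2, the mitochondrial form of the enzyme that makes phosphoenolpyruvate, ranged from 1.04 to 6.29 TPM. Among the untested genes of this list, G6PC1 had 0 TPM in every library, PCK1 at most 0.133 TPM and FBP1 at most 0.565 TPM.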

How the data were processed

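RNA of irradiated HK-2 cells was sequenced in 6 libraries, 3 IR+NC-LV and 3 IR+PR-LV, assigned by their labels. The authors deposited 1 table per library with raw counts for every gene, beside TPM and FPKM made from them. The deposited TPM and FPKM follow from the count and the exon length, and FPKM was not used further. The submitters' processing notes name CASAVA, featureCounts 2.0.1, DESeq2 1.16.1 and hg38; the aligner, strand and multiple-mapping settings are not given in the sources used here. Total counts ranged from 13407074 to 28540041, and since no molecular identifiers were used, reads may repeat the same molecule.

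Counts were tested with edgeR 4.0.16 in R 4.3.3 (filterByExpr with its default minimums of 10 counts and 15 in total, TMM, glmQLFit and glmQLFTest, no covariate), with Benjamini-Hochberg adjustment over 15340 rows and a threshold of 0.05; the procedure was tested on simulated data. Single values per library were compared by the 2-sided exact permutation test. Since no source says that the libraries of a group came from separate cultures, p-values measure the spread between these samples. The members and lists were chosen with earlier results of these data known. Beside the members and PRDM16, the text names genes of the same reaction and some untested genes of gluconeogenesis. Per list it names up to 3 genes with the smallest unadjusted p and up to 3 with the highest mean TPM. It also names the 3 genes of at least 10 CPM most like the members' sum. HKDC1 was added to the hexokinase share after its values were seen. Alternatives were other normalizations, DESeq2 1.42.0, limma 3.58.1 on log2(TPM + 1), other count filters, summed copies, a replicate block, a threshold of 0.01, leaving out each library and, added after seeing the data, assembled chromosomes only. No pair of libraries of the same group agreed within sampling noise (chi-square per degree of freedom from 3.44 to 13.2). A planned isoenzyme share and 1 gene of the lists are not reported here.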

Additional observations from a re-analysis of the deposited data

How the results depend on the processing

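The count of members called stayed at 0 under every alternative but that without a filter on low counts, where it was 1 (LDHA-2, log2 fold change 0.71). The count over all rows, 10, was 1 at an adjusted p under 0.01, 168 with DESeq2, 342 without a filter on low counts, 1 with limma on log2(TPM + 1), 37 with assembled chromosomes only, which was added after seeing the data, and from 1 (without IR+NC-LV 1, or without IR+PR-LV 3) to 28 (without IR+NC-LV 2) when 1 library was left out, with 16 without IR+NC-LV 3. Of the other pathway genes, 2 were called with DESeq2 (HKDC1 and LDHB) and 2 without a filter (HKDC1 and SLC16A1-2). The cause of these changes was not tested. The same replicate numbers did not deviate together (correlations of -0.0088, 0.051 and 0.071), and a fit with the replicate number as a block called 3 rows and no member, with 0.65 for LDHA-2 (edgeR adjusted p = 0.175); the blocked difference in summed TPM was 324 (exact sign-flip permutation p = 0.75). Some log2 fold changes near 0 changed sign. Leaving out 1 library gave HK1 from -0.0095 to 0.10, HK2 from -0.028 to 0.047, GAPDH from -0.013 to 0.12, PKM from -0.035 to 0.14 and PFKP from -0.087 to 0.074, with the lowest value of each without IR+PR-LV 1; ENO1 ran from 0.0070 to 0.17 likewise; HK2 was also -0.020 without IR+NC-LV 1 and -0.025 with limma. PFKP was 0.0024 with RLE normalization, 0.011 with DESeq2, 0.0093 without a filter, 0.00022 with copies summed, 0.0014 with assembled chromosomes only, and 0.0041 and 0.0077 without IR+NC-LV 2 and IR+PR-LV 2. Leaving out 1 library moved the difference in summed TPM between -421 and 1016 and that in the LDHA share between -0.0012 and 0.0511 percentage points (below 0 without IR+NC-LV 1), while summing the listed copies gave a difference in the LDHA share of 1.48. The alternative that adds processed pseudogenes to the members was not run, since no row is named as a member followed by P and a number. The largest standard errors were those of LDHA-2 (0.26), LDHA on chromosome 11 (0.21, from 42 to 133 counts) and GPI-2 (0.20, from 30 to 94 counts).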
